A study of Rattus norvegicus with 2 samples.

Results

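The 10 genes described here encode proteins of the neuronal cytoskeleton and neuronal RNA-binding proteins, namely Dcx, Tubb3, Stmn2, Elavl3, Elavl4, Tagln3, Gap43, Map2, Nefm and Nefl. They were picked by gene symbol from the 37203 genes of the count table. The set was built around Dcx and Tagln3 after their folds between the libraries were known, so those folds are a description and support nothing. The RNA came from the cardiac outflow tract (OFT), the vessel stem that is divided into the aorta and the pulmonary artery, of Sprague-Dawley (SD) rats at E13.5. The WT library was made from pooled OFTs of 10 wild type embryos, and the HO library from those of 10 homozygous Snx17-/- embryos, in which the gene of the endosomal recycling adaptor sorting nexin 17 was knocked out with CRISPR/Cas9. The labels name no other allele and no treatment, and the HO embryos were offspring of heterozygous rats of the F1 generation. The sources used here do not state sex or litter. As each genotype had 1 library, the spread between embryos or pools was not measured and no p-value is given.

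Neurons build long processes on a scaffold of microtubules and neurofilaments. Doublecortin (Dcx) and Map2 bind microtubules, Stmn2 loosens them, Tubb3 is a tubulin subunit used mainly by neurons, Gap43 works in growth cones, and the light and medium neurofilament chains Nefl and Nefm strengthen axons. The ELAV-like proteins Elavl3 and Elavl4 bind AU-rich stretches of neuronal mRNAs, and Tagln3 is the neuronal member of the transgelin family of actin-binding proteins. In the embryonic OFT, cardiac neural crest cells are a known source of mesenchyme and of the neurons and glia of the cardiac ganglia, and outside neurons many genes of this kind are held silent by the repressor REST.

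The sequences before the starts of Dcx and Tagln3 are shown because these are the members with the lowest and the highest fold. That of Elavl4 is shown because a search of the windows of the members found letters in it that match part of a REST site. Each line gives the 250 bases before a RefSeq transcript start in the rat build GRCr8, on the strand of the gene, whereas the reads had been aligned to Rnor 6.0. Capitals mark matches, on either strand, to the core promoter element TATAAA, to the E-box CANNTG, which proneural factors bind, and to TTCAGCACC (left arm of the REST site RE1). The right arm of RE1 had no match in the windows of the members.
Dcx, chrX:112304162-112304411, minus strand: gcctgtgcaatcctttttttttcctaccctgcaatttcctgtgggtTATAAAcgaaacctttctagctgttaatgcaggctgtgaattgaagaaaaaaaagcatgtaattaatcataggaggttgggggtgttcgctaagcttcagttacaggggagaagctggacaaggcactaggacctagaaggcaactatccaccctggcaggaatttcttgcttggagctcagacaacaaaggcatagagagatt
Tagln3, chr11:68562232-68562481, plus strand: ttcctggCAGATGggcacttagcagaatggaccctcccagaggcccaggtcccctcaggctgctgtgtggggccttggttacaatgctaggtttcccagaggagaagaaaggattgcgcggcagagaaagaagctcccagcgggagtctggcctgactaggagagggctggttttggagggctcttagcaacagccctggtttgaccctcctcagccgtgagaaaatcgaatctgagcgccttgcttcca
Elavl4, chr5:130367664-130367913, minus strand: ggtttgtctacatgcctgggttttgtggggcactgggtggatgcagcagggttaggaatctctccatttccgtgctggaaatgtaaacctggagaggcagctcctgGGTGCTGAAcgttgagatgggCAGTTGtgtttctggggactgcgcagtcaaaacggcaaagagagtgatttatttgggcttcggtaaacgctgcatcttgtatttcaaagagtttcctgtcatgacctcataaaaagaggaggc

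Of the 10 members, 6 had an entry among the 33469 promoter windows. The TATAAA of Dcx begins 204 bases before the start and is present in 12.9% of all windows of this length. The E-box of Tagln3 begins 243 bases before its start, and 65.5% of all windows hold one. The TTCAGCACC of Elavl4 reads GGTGCTGAA on the strand of the gene, begins 144 bases before the start and is found in 0.305% of all windows, while the right arm of RE1 is found in 0.108%. The windows of Dcx and Elavl4 precede a start inside the annotated gene and not its outermost start, and Tagln3 has a further window with its own E-box, 206 bases before the start. These matches describe the letters of the windows alone.

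The deposited counts summed to 9321811 (WT) and 9528615 (HO). For Snx17 itself the table held 1365 and 994 counts, a log2 ratio of −0.47 (interval −0.59 to −0.35), so the HO library still held reads of the targeted gene. The paper describes the deletion as a frameshift and reports the protein as almost absent from HO tissue at a later stage. Markers of the tissue were present in both libraries, as all 8 cardiomyocyte, 6 smooth muscle, 6 endothelial and 6 cushion mesenchyme markers had reads, with the cardiomyocyte markers at 187704 counts in WT and 215106 in HO. All 10 members had at least 20 counts in both libraries together, the minimum set for a comparison, but 6 of them had fewer than 100, so small differences were out of reach for most of the set.

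Per gene length, Stmn2 stood far above the rest of the neuronal genes in both libraries. Its level was 59.2 RPKM (reads scaled to gene length and library total) in WT and 62.2 RPKM in HO, higher than 91.2% and 91.4% of all genes tested. The next gene was Tubb3 in WT, at 6.88 RPKM, which Stmn2 exceeded 8.61-fold, and Gap43 in HO, at 5.73 RPKM, which it exceeded 10.9-fold. Dcx had the lowest level in HO, at 0.0331 RPKM, and in WT, at 0.316 RPKM, its interval overlapped that of Elavl3, the next gene.

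**Figure D1:**
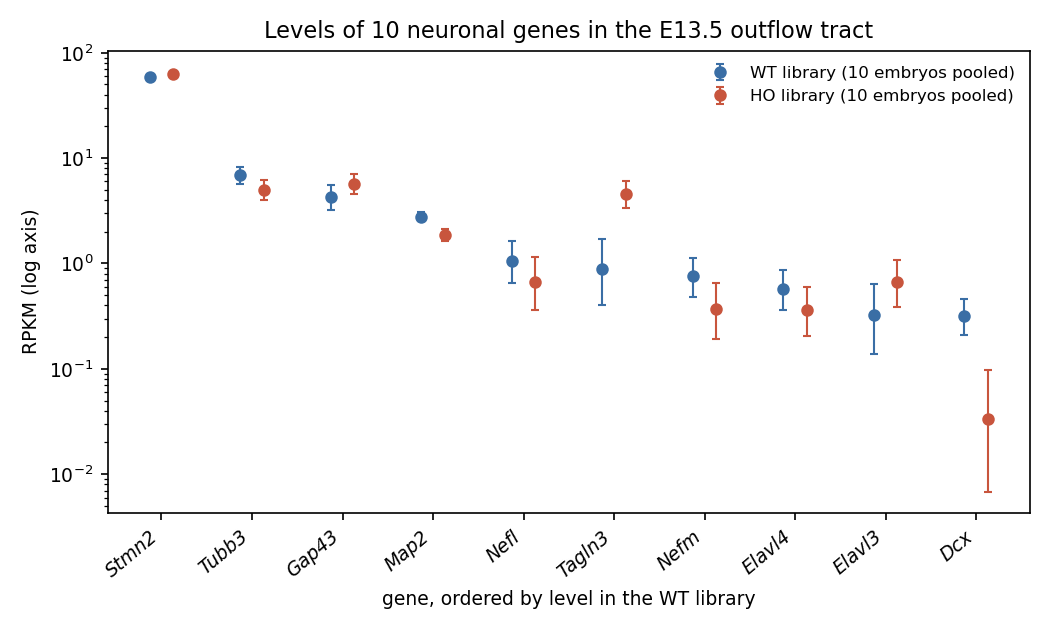
Level in RPKM (log axis) of each neuronal gene in the WT library (blue) and the HO library (red), ordered by the WT level, with exact Poisson 95% intervals that cover counting error only. Stmn2 lies near 60 RPKM in both libraries, Tagln3 moves from 0.890 to 4.55 RPKM, and Dcx from 0.316 to 0.0331 RPKM.

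In the WT order, Stmn2, Tubb3, Gap43, Map2 and Nefl, at 59.2, 6.88, 4.27, 2.79 and 1.06 RPKM, were each separated from the next by their exact Poisson 95% intervals, down to the step from Map2 to Nefl. Below that step the neighbours Nefl, Tagln3 (0.890 RPKM), Nefm (0.757), Elavl4 (0.573), Elavl3 (0.322) and Dcx (0.316) had overlapping intervals and could not be ranked. In the HO order, Gap43 (5.73 RPKM), Tubb3 (interval 3.99 to 6.19) and Tagln3 (4.55) formed a group whose neighbouring intervals overlapped, and Map2 (1.86 RPKM) lay below it. Tagln3 was thus among the genes below Map2 in WT and above Map2 in HO. The order ended in HO with Nefl (0.673 RPKM), Elavl3 (0.668), Nefm (0.370) and Elavl4 (0.365), whose neighbours overlapped, and with Dcx (0.0331 RPKM), whose interval lay apart from that of Elavl4.

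Between the genotypes, most of the neuronal genes had folds whose intervals included no difference. Folds are ratios of HO to WT counts, scaled by TMM (trimmed mean of M values), and their 95% intervals were derived from exact Clopper-Pearson limits on the share of reads from HO, which cover counting error only. A gene was taken as higher or lower in HO where the whole interval lay beyond 1.5-fold. By this rule 1 member, Tagln3, was higher, where 0.771% of all 15426 genes tested were, and 1 member, Dcx, was lower, where 1.18% of all genes tested were. These were the genes around which the set was built, so nothing is read from that count. Among the 3353 genes with 20 to 99 counts, the range in which both lie, 1.31% were higher and 2.15% lower, or 3.46% in either direction, beside 1.95% of all genes tested. The other 8 members had log2 folds from −1.02 to 1.07, and in 6 of the 10 the interval included no difference. As these are bulk samples, a change in cell number and a change in RNA per cell cannot be told apart for any of the genes. Whether the reads came from neurons or from other cells of the OFT was not tested.

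**Figure D2:**
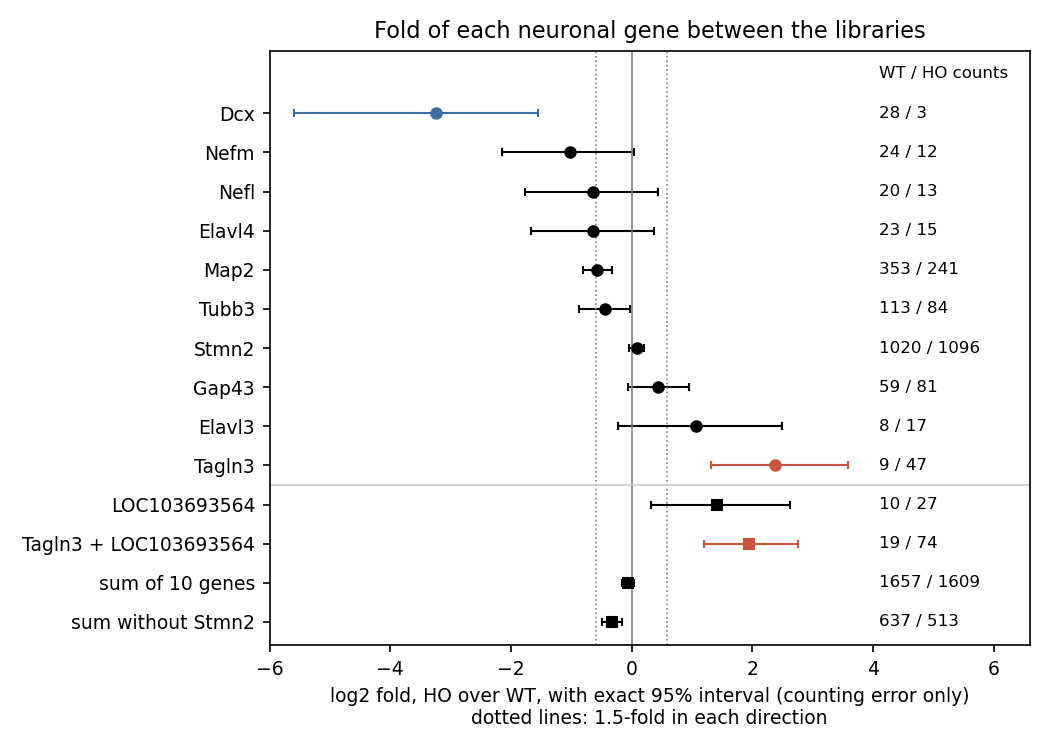
Log2 fold (HO over WT) of each neuronal gene, of the unnamed gene that matches Tagln3, and of sums, with exact 95% intervals for counting error, the counts of both libraries at the right and dotted lines at 1.5-fold. Dcx (blue) lies wholly below the range and Tagln3, alone or summed (red), wholly above it, while the 8 genes in black reach into it.

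Dcx, which bundles microtubules in migrating neurons, had 28 counts in WT and 3 in HO. Its ratio was 0.106, with an interval from 0.0206 to 0.343, or −3.24 on the log2 scale (−5.60 to −1.54). The interval of Dcx did not overlap those of Tubb3, Stmn2, Elavl3, Tagln3, Gap43 and Map2, and overlapped those of Elavl4, Nefm and Nefl. The genes most related to Dcx did not share its fold. Dclk1, a kinase with doublecortin domains, had 504 WT counts and 610 HO counts (log2 ratio 0.26, interval 0.09 to 0.43), and Dclk2 had 683 and 659 (−0.07, interval −0.22 to 0.09). Dclk3 had 2 and 5 counts, too few for the comparison. Dcx gave 1.64% of the summed RPKM of these 4 genes in WT and 0.170% in HO, and the kinases gave the rest.

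Tagln3, the neuronal transgelin, had 9 counts in WT and 47 in HO, with a log2 fold of 2.37 (interval 1.32 to 3.58). LOC103693564, an unnamed gene that the table describes as transgelin-3 and matches to Tagln3, had 10 counts in WT and 27 in HO. Its log2 fold was 1.42 (interval 0.33 to 2.63), above no difference but reaching into the 1.5-fold range, so both entries had more reads in HO. Summed, they had 19 and 74 counts, with a log2 ratio of 1.95 (interval 1.20 to 2.76), which met the rule. With the reads of all such matches joined to their named genes, the members called were again Tagln3 and Dcx, where 0.52% of 14800 genes tested were higher and 0.912% lower, or 1.43% in either direction. The named gene took 47.4% of these reads in WT (exact binomial 95% interval 24.4 to 71.1) and 63.5% in HO (51.5 to 74.4), and as the intervals overlap no shift between the entries could be seen. None of the other 9 members had an unnamed match, whereas Dclk1, Tubb2a, Nes and Basp1 among the related genes had at least 1, with which they may share reads. The muscle and general transgelins were far higher and close to equal in both libraries. Tagln, of smooth muscle, had 6847 WT counts and 6518 HO counts (log2 ratio −0.09, interval −0.14 to −0.04), and Tagln2 had 12570 and 13626 (0.10, interval 0.07 to 0.14). Per length, Tagln3 gave 0.0445% of the summed RPKM of the 3 transgelins and 3 calponins in WT and 0.225% in HO. The calponins Cnn1, Cnn2 and Cnn3 had log2 folds of 0.09, 0.11 and −0.03.

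The microtubule genes with more reads had folds closer to 1. Stmn2, a stathmin that frees tubulin from microtubules and is anchored to membranes of growing axons, had 1020 WT counts and 1096 HO counts. The ratio was 0.09 on the log2 scale (interval −0.04 to 0.21), and the interval included no difference. Map2, which binds dendritic microtubules, had 353 and 241 counts (log2 ratio −0.57, interval −0.81 to −0.33). Its whole interval lay below no difference, but reached into the 1.5-fold range. Tubb3 had 113 WT counts and 84 HO counts (log2 ratio −0.44, interval −0.87 to −0.02), again below no difference and not beyond 1.5-fold.

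The relatives of these genes showed how the neuronal members sit in a tissue that is mostly not neuronal. Among the stathmins, Stmn1, which most dividing cells use, had 1964 and 2195 counts (log2 ratio 0.15, interval 0.06 to 0.23), Stmn4 had 464 and 426 (−0.14, interval −0.33 to 0.05), and Stmn3, another neuronal stathmin, was at 0 in both libraries. Stmn2 made up 21.1% of the summed RPKM of the family in WT and 20.8% in HO, and Stmn1 71.5% and 73.1%. Of the 8 beta-tubulins, Tubb5 alone gave 71.6% of the summed RPKM in WT and 71.4% in HO, and Tubb3 gave 0.406% and 0.318%. No other beta-tubulin with at least 20 counts had a log2 fold further from 0 than Tubb2a, at −0.17 (interval −0.36 to 0.01), with 489 and 438 counts. Tubb2b, which neural cells also use, had 2757 and 2513 counts (−0.15, interval −0.23 to −0.07). Of the 9 microtubule-associated proteins none met the rule, where 1.95% of all genes tested did. A log2 fold below 0 was seen in 8 of the 9, with Map2 the lowest. The most abundant were Map4, found in most cell types, with 4712 and 4478 counts (−0.09), and Map1b, of growing axons, with 4419 and 3998 (−0.16). The median of these 9 genes was −0.16, beside 0.01 for all genes tested.

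Gap43, a membrane protein of growth cones, went the other way from Map2, with 59 counts in WT and 81 in HO (log2 ratio 0.44, interval −0.06 to 0.95). Its interval did not overlap those of Dcx, Map2 and Tagln3, but included no difference. Of 10 growth cone genes, Gap43 among them, 1 was lower and none was higher in HO, where 1.18% and 0.771% of all genes tested were, and the median log2 fold was −0.22. The lower gene was Fez1, an adaptor of kinesin transport in axons, with 32 counts in WT and 8 in HO (−2.02, interval −3.34 to −0.87). Dpysl2 and Dpysl3, collapsin response mediators with the most reads of the list, had 3683 and 3412 counts (−0.13) and 2867 and 2807 counts (−0.05). Basp1 and Marcksl1, which like Gap43 bind the inner face of the membrane, did not meet the rule and are named after their values were seen. Basp1 had 186 WT counts and 119 HO counts, a log2 ratio of −0.66. Marcksl1 had 516 and 304 (−0.78, interval −0.99 to −0.57) and met the rule with total counts, the RPKM ratio, upper-quartile factors and either centring of the folds. Dpysl5, an immature neuron marker chosen in the same way, had 28 and 22 counts, and 47 and 25 when summed with 2 unnamed genes that match it (−0.93, interval −1.69 to −0.20). Others of the list, also named after their values were seen, went up. Marcks had 460 WT counts and 611 HO counts (0.39, interval 0.22 to 0.57). Crmp1 had 490 and 577 (0.22, interval 0.04 to 0.40). With Gap43, these were the 3 of the 10 growth cone genes above 0.

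The neurofilament members were low and lay on the same side. Nefm had 24 WT counts and 12 HO counts (log2 ratio −1.02, interval −2.15 to 0.04), and Nefl had 20 and 13 (−0.64, interval −1.77 to 0.44). Both intervals included no difference. In GRCr8, Nefm overlaps an unnamed gene, and as the counting is not stated to use strand, reads of the pair may not be told apart. At these counts, Nefm would have met the rule as lower at a ratio of 0.283 or less, and Nefl at 0.266 or less. The heavy chain, Nefh, was the neurofilament with the most reads, with 638 counts in WT and 303 in HO, and it was lower by the rule (−1.09, interval −1.29 to −0.89). Per length Nefh had 17.8 RPKM in WT and 8.27 in HO, whereas Nefl had 1.06 and 0.673 and Nefm 0.757 and 0.370. Prph, peripherin, a filament of peripheral neurons, had 702 and 742 counts (0.06, interval −0.09 to 0.22), and Ina, the neuronal filament internexin, had 2 and 2. Vim, vimentin of mesenchymal cells, was far above them all, at 1141 RPKM in WT and 921 RPKM in HO, with 19096 and 15762 counts (−0.29, interval −0.32 to −0.26).

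The ELAV genes split. Elavl3 had 8 WT counts and 17 HO counts (log2 ratio 1.07, interval −0.22 to 2.49), and Elavl4 had 23 and 15 (−0.63, interval −1.68 to 0.37). The intervals of the pair overlapped, and both included no difference. With its 25 counts in all, Elavl3 would have been taken as higher only at a ratio of 5.19 or more. Elavl2, the other neuronal ELAV gene, had 9 counts in WT and 31 in HO and was higher by the rule (1.77, interval 0.66 to 3.02). Elavl1, which all cells use, had 793 and 812 counts (0.02, interval −0.12 to 0.16) and gave 96.9% of the summed RPKM of the family in WT and 95.1% in HO. Elavl2, Elavl3 and Elavl4 gave 0.647%, 0.893% and 1.59% in WT and 2.14%, 1.82% and 0.994% in HO. Of 9 other neuronal RNA-binding proteins with enough counts, none met the rule, where 1.95% of all genes tested did. Those with the most reads were the splicing factors Rbfox2, with 853 and 747 counts (−0.21, interval −0.35 to −0.06), and Ptbp2, with 385 and 456 (0.23, interval 0.03 to 0.43).

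**Figure D3:**
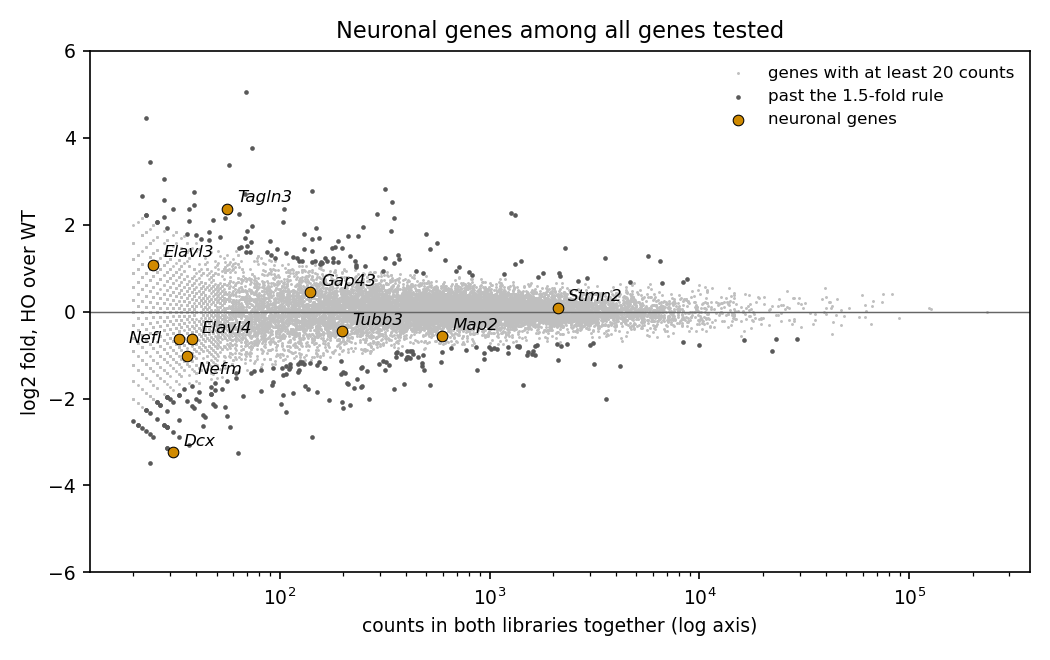
Log2 fold (HO over WT) against the counts of both libraries together (log axis) for the genes with at least 20 counts, with genes past the 1.5-fold rule in dark grey and the neuronal genes in orange. The 6 neuronal genes with fewer than 100 counts lie where the folds of all genes spread widest, and Stmn2, with 2116 counts, lies at 0.09. The 2 genes with no count in 1 library are not drawn.

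Added together, the 10 members had 1657 counts in WT and 1609 in HO, with a log2 fold of −0.06 (interval −0.16 to 0.04). Stmn2 alone held 61.6% of these reads in WT and 68.1% in HO. Without Stmn2, the other 9 had 637 and 513 counts, and their summed log2 ratio was −0.33 (interval −0.50 to −0.16), below no difference and within 1.5-fold. The 7 members other than Stmn2, Dcx and Tagln3 had 600 and 463 counts (−0.39, interval −0.57 to −0.21), of which Map2 held most. The 4 low members Elavl3, Elavl4, Nefm and Nefl had 75 and 57 counts in sum (−0.41, interval −0.93 to 0.11). The median log2 fold over the 10 members was −0.50, beside 0.01 for all genes tested, with 4 members above 0 and 6 below.

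Genes of synapses and secretory vesicles ranged from almost no reads to more reads than Stmn2. Of 21 synaptic and secretory vesicle genes, 14 had at least 20 counts, with a median log2 fold of −0.08. None of the 14 met the rule, where 1.95% of all genes tested did. The 2 with the most reads were Uchl1, a ubiquitin hydrolase of neurons, with 1399 counts in WT and 1522 in HO (0.11), and Vamp2, of vesicle fusion, with 821 and 872 (0.07). The vesicle genes that define neurons most closely, which are named after their values were seen, had few reads. Syt1, the calcium sensor of transmitter release, had 6 and 5 counts, Snap25 had 9 and 17, and the granule proteins Chga and Chgb had 2 and 0, and 0 and 1.

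Of 14 autonomic neuron genes found in the table, 4 had at least 20 counts. None of these 4 met the rule, beside 1.95% of all genes tested. The choline enzyme Chat, its vesicle transporter Slc18a3 and the receptor subunit Chrna3 were at 0 in both libraries. Dbh, which makes noradrenaline, had 17 and 17 counts, and Th, of the same pathway, had 1 and 2, both named after their values were seen. The autonomic genes with the most reads were Ddc, an enzyme of amine synthesis also made outside neurons, with 1088 and 1291 counts (log2 ratio 0.23, interval 0.11 to 0.35), and Slc18a2, a vesicle transporter of amines, with 68 and 109 (0.67, interval 0.22 to 1.12).

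Of 13 sensory neuron genes, 4 had enough counts and 2 of these were lower in HO, where 1.18% of all genes tested were. Isl2, a LIM homeobox factor of motor and sensory neurons, had 25 WT counts and 4 HO counts (log2 ratio −2.66, interval −4.64 to −1.12), and Ntrk3, the receptor of neurotrophin 3, had 239 and 118 (−1.03, interval −1.36 to −0.71). Ntrk2, the receptor of brain-derived neurotrophic factor, had 728 and 466 (−0.66, interval −0.83 to −0.49). Of the sensory transcription factors, Neurod1, Neurog1, Neurog2, Drgx and Prdm12 were at 0 in both libraries, while Pou4f1 had 7 and 10 counts, Runx3 had 1 and 1, and Tlx3 had 1 and 0, the last 3 named after their values were seen. The 10 neural tube progenitor genes found in the table summed to 4 counts in WT and 8 in HO, with 6 of the 10 at 0 in both. Sox1 and Sox3 of this list were not matched. Reads of an unnamed gene that matches Otx2, itself at 0 in both libraries, were not added. Of 12 immature neuron genes, 10 had enough counts, and the median was 0.05. None of the 10 met the rule, where 1.95% of all genes tested did. Cd24, a surface protein, and Sox4, a transcription factor, both also made by other embryonic cells, had 1273 and 1595 counts (0.31) and 1121 and 1123 counts (−0.01).

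**Figure D4:**
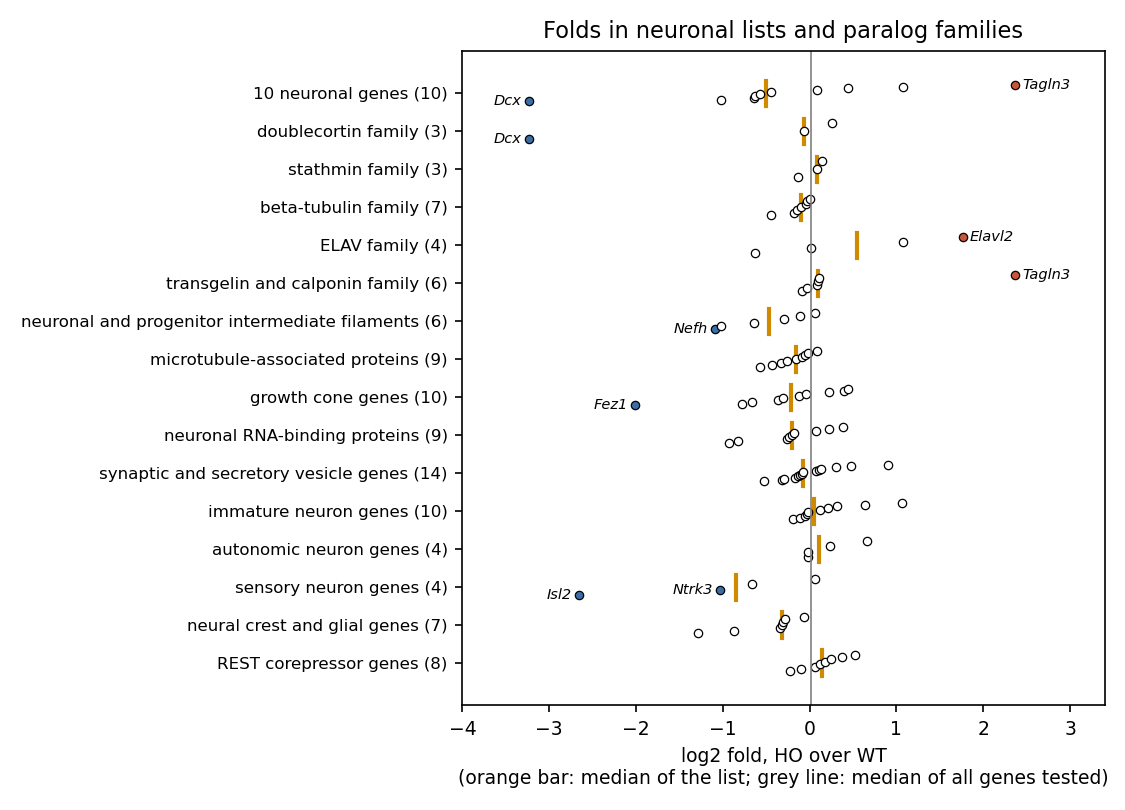
Log2 fold (HO over WT) of each gene with at least 20 counts in the neuronal genes, their paralog families and other neuronal lists, with the number of such genes in brackets, blue and red points for genes lower and higher by the rule, an orange bar at the median of the list and a grey line at the median of all genes tested (0.01). The named points are Dcx, Nefh, Fez1, Isl2 and Ntrk3 below and Tagln3 and Elavl2 above.

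Markers of some other cells moved beside the neuronal genes, and their part in the folds above was not tested. The median log2 folds of the cardiomyocyte, smooth muscle, endothelial and cushion mesenchyme markers were 0.14, −0.02, 0.18 and −0.11. Those of the erythroid and of the epithelial and endoderm markers with enough counts were 0.16 and 0.09. No gene of these lists met the rule, where 1.95% of all genes tested did. Some genes lay away from these medians and are named after their values were seen. Pdgfra, of cushion mesenchyme, had a log2 fold of −0.67 (interval −0.76 to −0.58). It was lower by the rule with total counts, the RPKM ratio and upper-quartile factors. Hbb, of the erythroid list, had −1.05 (interval −1.61 to −0.51), and the endothelial Emcn had 1.01 (interval 0.52 to 1.53). All 7 neural crest and glial genes with enough counts had a log2 fold below 0, with a median of −0.32. None met the rule, where 1.95% of all genes tested did, and the list summed to 2060 counts in WT and 1753 in HO. Ngfr, a receptor of neural crest cells and glia, had 886 and 733 counts (−0.29, interval −0.43 to −0.15), and Erbb3, of the same lineages, had 645 and 624 (−0.06, interval −0.22 to 0.10). Foxd3, Fabp7 and Tfap2b of this list were at 0 in both libraries, while Sox10, named after its values were seen, had 69 and 55 counts (−0.34, interval −0.88 to 0.19). All 5 epicardial markers were below 0, with a sum of 3266 and 1964 counts, and 2 of them, Tbx18 and Tcf21, were lower by the rule, where 1.18% of all genes tested were. The 5 macrophage markers summed to 107 counts in WT and 235 in HO, and 1 of them, Csf1r, was higher by the rule, where 0.771% of all genes tested were. Rest, the repressor of neuronal genes, had 1219 and 1151 counts (log2 ratio −0.10, interval −0.22 to 0.02). None of the 8 REST corepressor genes found, Rest included, met the rule, where 1.95% of all genes tested did. Hdac2 and Ehmt2, those with the most reads, had log2 folds of 0.37 and −0.22.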

How the data were processed

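Total RNA (integrity number above 7.8) from pooled OFTs was sequenced as single-end Ion Proton reads, 1 library per genotype. After cleaning of the reads, the authors mapped them to Rnor 6.0 with MapSplice 2.1.8 and deposited raw counts per gene. For the counting tool, annotation and strand setting, the sources used here give nothing. With the library totals, the counts and RPKM values deposited by the authors gave the same gene length in both libraries. These lengths were worked out from the deposited values and not checked against an annotation. The columns of both tables name stage E11_5, whereas the labels give E13.5, which is used here.

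Members and gene lists were chosen with earlier results of these data known. Library sizes were scaled with TMM (edgeR 4.0.16, R 4.3.3), with an HO to WT ratio of effective library sizes of 1.01. Models that estimate spread could not be fitted. Folds had exact Clopper-Pearson 95% intervals and RPKM exact Poisson intervals (scipy 1.17.1). Reads of a PCR library are not independent molecules, so intervals cover counting error only. The rule was intervals beyond 1.5-fold among genes with at least 20 counts. It was run on simulated counts that held counting error only, which cannot show how it behaves with spread between pools. Named genes are the members, their matches, Snx17, paralogs, and in other lists up to 4 genes past the rule and the 2 with most reads. Genes named otherwise are marked as such, except list members at 0 in both libraries, which are named as such. Epicardial and macrophage markers are given as sums. The symbols Insm1, Sox1, Sox3, Rcor1, Hba-a1 and Hba-a2 of the lists were not matched. Sequences are from RefSeq (GRCr8). Alternatives were other scalings (total counts, DESeq2 1.42.0 size factors, the ratio of RPKM values and upper-quartile factors), lowess centring by abundance or gene length, 99% intervals, a 2-fold threshold, other count minimums and joined reads of copies.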

Additional observations from a re-analysis of the deposited data

How the results depend on the processing

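Each member kept the sign of its fold under the alternatives that gave it a value, and the calls of Dcx (log2 folds from −3.28 to −3.09) and Tagln3 (1.95 to 2.46) were kept in all of these. A minimum of 100 counts left 0 members higher and 0 lower, since Dcx and Tagln3 have fewer counts than that. Leaving out Stmn2, an alternative added after the data were seen, moved the log2 fold of the summed members from −0.06 to −0.33. With upper-quartile factors the interval of the full sum lay below no difference (−0.20 to −0.00162). With 99% intervals Elavl2, Fez1 and Tcf21 no longer met the rule, and over all genes 73 were higher and 117 lower, against 119 and 182. At a 2-fold threshold, where Elavl2, Fez1, Nefh, Ntrk3, Tbx18, Tcf21 and Csf1r did not meet the rule, these counts were 42 and 57, with at least 100 counts 75 and 110, and with joined copies 77 were higher. Low counts limit 6 of the 10 members, for which only ratios of at least 2.97 or at most 0.330 could have met the rule. No paired analysis was possible because each genotype had 1 library, and for the same reason no library could be left out.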
